A study of Mus musculus with 4 samples.

Results

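Most histone genes are transcribed only while DNA is copied, and their mRNA ends in a stem-loop without a poly(A) tail. A smaller group encodes replacement variants, which are made from polyadenylated mRNA or outside S phase and are put into chromatin by their own chaperones. The genes described here are 8 of these variants, chosen by gene symbol: H2afz, H2afv, H2afx, H2afy, H3f3a, H3f3b, Cenpa and H1f0. Of the 8, 7 are listed in both deposited tables, which hold 26130 genes each, and all 7 passed the limit of 1 RPM in every library. H1f0 was not analysed here. The contrast is with 67 listed genes whose symbols begin with Hist1h to Hist4h. They are called replication-dependent histone genes here by symbol alone, and replication dependence was not tested for each gene.

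RNA came from mouse embryonic stem cells (ES cells), which are pluripotent cells from the early embryo, cultured without feeders on gelatin in serum with leukemia inhibitory factor. There were 4 libraries of poly(A)-selected, strand-marked mRNA, 1 for each group. The groups were E14 Zfp57-/- and E14 wild type, both of strain 129P2/OlaHsd, and JB1 Zfp57-/- and JB1 wild type, both of strain JF1/B6. ZFP57, a zinc finger protein with a KRAB domain, is known to protect the DNA methylation of imprinted loci, and the question was how mRNA levels differ without it. The labels do not say how the gene was disrupted or how many clones were used.

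The listed genes held 26801865 to 66849394 reads per library. RPM are reads per 1000000 of the authors' library total, so 1 RPM was 50.5 to 97.0 reads. Zfp57 itself was 51.8 RPM in the E14 knockout and 135 RPM in the E14 wild type, and 42.9 RPM in the JB1 knockout and 796 RPM in the JB1 wild type, so both directions matched the labels. The ES cell factor Pou5f1 was 442 RPM in the E14 knockout and 480 RPM in the E14 wild type, and 940 RPM in the JB1 knockout and 925 RPM in the JB1 wild type. Some other ES cell markers differed more between the genotypes and are given below. With 1 library per line and genotype, no test was possible within a line. The 95% intervals below are exact binomial intervals on the reads. They cover counting error only, and they say nothing about the spread between cultures. In bulk RNA, fewer cells of a type and less RNA per cell cannot be told apart.

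The groups of histone genes are known to differ at the 3′ end of their mRNA, and the sequences printed here are from that end. The stem-loop was searched after the stop codon of the GENCODE M21 coding transcripts as GGNNNTNNTNANNNCC, on the sense strand only, with all 6 base pairs of the stem formed (G with U allowed). It was found in 45 of 66 replication-dependent histone genes with a coding transcript in that annotation, and in 0.892% of the 18952 protein-coding genes of the tables. Among the 7 variants it was found in 1, H2afx, 46 bases after the stop codon and 822 bases before the transcript end. Long annotated ends were not particular to H2afx. The stem-loop lay 36 bases after the stop codon and 770 before the transcript end in Hist1h4d, and 33 and 454 bases in Hist1h4c. H2afx is the known case of a histone gene that makes both a stem-loop mRNA and a longer polyadenylated one. Its stem-loop is printed beside those of the replication-dependent genes Hist1h4d and Hist1h4c, with the 16 bases of the stem-loop in capitals. Over these 16 bases, counted from 1 at the 5′ end, H2afx differs from Hist1h4d by C10A, in the loop.
H2afx: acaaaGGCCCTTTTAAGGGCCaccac
Hist1h4d: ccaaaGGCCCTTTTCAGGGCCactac
Hist1h4c: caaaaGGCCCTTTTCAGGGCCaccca

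A poly(A) signal (AATAAA or ATTAAA) stood in the last 50 bases of a coding transcript for 6 of the 7 variants (all except H2afy). It did so for 17 of the 66 replication-dependent genes and for 79.3% of all protein-coding genes. In the tables the H2afx gene spans bases 44142798 to 44144154 of chromosome 9 on the plus strand (mm9). The values are per gene, so reads from the 2 mRNA forms were not separated. Poly(A) selection acts against the form without a tail, and how much of that form was read is not known.

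Levels are given first, and the order of genes is read per kb of annotated exon (GENCODE M21, another build than that of the tables). H2afz encodes H2A.Z, the H2A variant at promoters and enhancers, and stood first per kb in every library. It had 609 RPM per kb in the E14 knockout and 445 in the E14 wild type, and 979 in the JB1 knockout and 601 in the JB1 wild type. H3f3b was next, with 355 and 257 RPM per kb in E14 knockout and wild type and 274 and 322 in JB1 knockout and wild type. By RPM alone, H3f3b was above H2afz in all libraries except the JB1 knockout (688 against 1047 RPM). The order of these genes thus depends on the annotated exon lengths, 1069 bases for H2afz and 2514 for H3f3b. H3f3a followed everywhere, between 69.4 and 113 RPM per kb. The remaining 4 genes lay between 14.6 and 59.5 RPM per kb, and their order differed between libraries. In E14 wild type H2afx had 30.3 and H2afv 29.5 RPM per kb, and in the JB1 knockout Cenpa had 36.7 and H2afy 35.6 RPM per kb. With no replicates, the order of such close neighbours could not be tested.

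**Figure D1:**
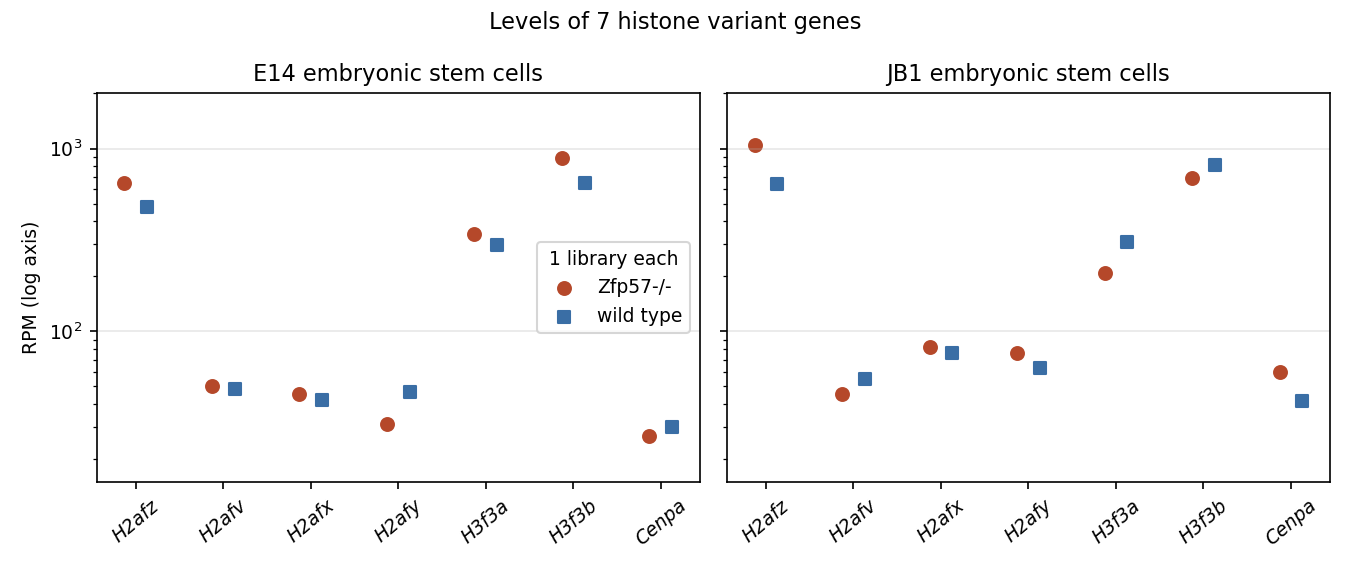
RPM on a log axis of the 7 variant genes in the E14 (left) and JB1 (right) libraries, with circles for Zfp57-/- and squares for wild type, 1 library each. H2afz, H3f3a and H3f3b lie at 208 RPM or more in every library and the other 4 genes at 82.4 RPM or less.

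H2afz was higher in both knockout libraries by more than 0.32 on the log2(RPM + 1) scale, a ratio of 5 to 4, which is the limit used here within a line. The gene lies on chromosome 3 (137527451 to 137529886, plus strand, mm9) and had 651 RPM in the E14 knockout and 476 RPM in the E14 wild type. In JB1 it had 1047 RPM in the knockout and 642 RPM in the wild type. The ratio was 1.37 in E14 (95% interval 1.35 to 1.39) and 1.63 in JB1 (95% interval 1.61 to 1.65). It stood at percentile 93.0 of 12276 genes in E14 and 93.5 of 13132 in JB1. Of the 11890 genes measured in both lines, 4.67% were higher by 0.32 or more in both, and of the 7 variants 1 was, H2afz. The effect shared by the lines was 0.58 ± 0.19 (SE) on the log2(RPM + 1) scale, with an adjusted p of 0.623 by limma (unadjusted p of 0.022).

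Genes around H2afz are given beside it. In JB1 the 12 genes within 2 Mb that averaged 5 RPM or more had a median log2 difference of 0.58, 2 of the 12 were lower in the knockout, and 8 of the 12 lay below H2afz itself (0.70). In E14 the same genes had a median of 0.01, and all 12 lay below H2afz (0.45). Of all measured genes, 51.5% were higher in JB1 and 53.5% in E14. The part of the neighbourhood in the JB1 value was not tested.

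The H2afz promoter is shown because H2afz was higher in both lines, and the H3f3a and H3f3b promoters because these genes encode the same H3.3 protein. RefSeq windows (GRCm38.p6) run from 250 bases before to 50 after the gene start. The windows lie at chr3:137864237-137864536 (H2afz, plus strand), chr1:180813556-180813855 (H3f3a, minus strand) and chr11:116024455-116024754 (H3f3b, minus strand). Capitals mark the CCAAT box (CCAAT, either strand) and the TATA box (TATAAA, either strand).
H2afz: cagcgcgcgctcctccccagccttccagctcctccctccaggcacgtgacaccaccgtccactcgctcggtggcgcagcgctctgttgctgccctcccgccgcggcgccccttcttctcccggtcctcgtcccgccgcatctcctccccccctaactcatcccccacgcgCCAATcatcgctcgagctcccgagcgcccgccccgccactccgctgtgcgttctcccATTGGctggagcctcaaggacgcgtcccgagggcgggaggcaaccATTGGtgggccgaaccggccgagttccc
H3f3a: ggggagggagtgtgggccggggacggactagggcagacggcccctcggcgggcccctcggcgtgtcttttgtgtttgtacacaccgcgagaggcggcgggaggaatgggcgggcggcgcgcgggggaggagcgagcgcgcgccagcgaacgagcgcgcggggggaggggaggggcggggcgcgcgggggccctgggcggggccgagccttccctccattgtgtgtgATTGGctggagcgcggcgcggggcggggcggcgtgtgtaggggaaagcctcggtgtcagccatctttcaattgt
H3f3b: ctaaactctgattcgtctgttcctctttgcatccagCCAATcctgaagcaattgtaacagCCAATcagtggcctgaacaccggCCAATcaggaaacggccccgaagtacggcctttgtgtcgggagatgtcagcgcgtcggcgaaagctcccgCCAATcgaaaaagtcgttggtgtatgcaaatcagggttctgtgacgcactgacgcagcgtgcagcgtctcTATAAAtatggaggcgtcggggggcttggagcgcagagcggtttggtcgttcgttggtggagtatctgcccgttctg

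The H2afz window held 3 CCAAT boxes, the H3f3a window 1, and the H3f3b window 4 and a TATA box. Windows were matched for H2afz, H2afv, H2afy, H3f3a, H3f3b and Cenpa. CCAAT was in 5 of these 6, all except H2afy, and in 37.4% of all 32851 windows of this length. TATAAA was in 1 of the 6 and in 13.6% of all windows. TGCCGC, the hexamer that ZFP57 is known to bind when methylated, was in 1 of the 6, that of H2afv, and in 11.6% of all windows. The GC content was 55.0% in H3f3b, 74.0% in H3f3a and 71.3% in H2afz, against a median of 52.7% over all windows. A match of letters is a description and shows no binding.

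H2afv encodes H2A.Z.2, the near-identical sister of H2A.Z (chromosome 11, 6327229 to 6344446, minus strand), and was close to level in E14 and lower in JB1. It had 50.03 RPM in the E14 knockout and 48.1 RPM in the E14 wild type, a ratio of 1.04 (95% interval 0.988 to 1.10). The JB1 knockout had 45.1 RPM and the JB1 wild type 55.1 RPM, 1.22-fold lower (95% interval 1.17 to 1.28). The E14 interval includes equal levels and the JB1 interval does not. In JB1, 46.3% of measured genes differed by as much or more, in either direction. H2afz reads were 13.01 times H2afv reads in the E14 knockout and 9.90 times in the E14 wild type, and 23.2 times in the JB1 knockout and 11.7 times in the JB1 wild type. This ratio is taken within a library and does not depend on the scaling.

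H2afx encodes H2A.X, which is phosphorylated around DNA breaks, and it was nearly level in both lines. It had 45.6 RPM in the E14 knockout and 41.9 RPM in the E14 wild type, a ratio of 1.09 (95% interval 1.03 to 1.15). H2afx had 82.4 RPM in the JB1 knockout and 76.5 RPM in the JB1 wild type, a ratio of 1.08 (95% interval 1.04 to 1.12). In both lines the knockout library was the higher one by a small margin. A difference of this size or more, in either direction, was seen in 62.1% of measured genes in E14 and 78.1% in JB1.

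H2afy encodes macroH2A1, an H2A variant with a large globular domain that marks the inactive X chromosome and other repressed chromatin (chromosome 13, 56174980 to 56237722, minus strand). It had 31.2 RPM in the E14 knockout and 46.4 RPM in the E14 wild type, 1.49-fold lower (95% interval 1.40 to 1.58). In JB1 it had 76.0 RPM in the knockout and 63.2 RPM in the wild type, 1.20-fold higher (95% interval 1.16 to 1.249). It was lower in one knockout and higher in the other, and in E14 it stood at percentile 2.60 of all measured genes. In JB1, 49.2% of measured genes differed by as much or more, in either direction. Of 28 genes within 2 Mb, none had a lower difference than H2afy (−0.56) in E14, and their median was 0.01.

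H3f3a and H3f3b encode the same protein, H3.3, the H3 variant of active genes and of heterochromatin outside replication. H3f3a (chromosome 1, 182730963 to 182744074, minus strand) had 340 RPM in the E14 knockout and 296 RPM in the E14 wild type, a ratio of 1.15 (95% interval 1.12 to 1.17). In JB1 it had 208 RPM in the knockout and 308 RPM in the wild type, 1.48-fold lower (95% interval 1.45 to 1.51). The gene was thus higher in the E14 knockout and lower in the JB1 knockout. H3f3b (chromosome 11, 115883226 to 115889276, minus strand) had 892 RPM in the E14 knockout and 646 RPM in the E14 wild type, a ratio of 1.38 (95% interval 1.36 to 1.40). In JB1 it had 688 RPM in the knockout and 810 RPM in the wild type, 1.18-fold lower (95% interval 1.16 to 1.19). A difference of the size of H3f3a or more, in either direction, was seen in 42.2% of measured genes in E14 and 17.9% in JB1. For H3f3b these shares were 10.4% in E14 and 54.1% in JB1. Both H3.3 genes went the same way within a line and opposite ways between the lines. Their sum was 1232 RPM in the E14 knockout and 942 RPM in the E14 wild type, and 896 RPM in the JB1 knockout and 1117 RPM in the JB1 wild type.

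H3f3b made up more of the H3.3 reads in the knockout than in the wild type of both lines. H3f3b gave 72.4% of their reads in the E14 knockout (95% interval 72.1 to 72.7) and 68.5% in the E14 wild type (68.1 to 69.0). In JB1 it gave 76.8% in the knockout (76.5 to 77.0) and 72.5% in the wild type (72.1 to 72.8). These intervals cover counting error only. The wild-type shares of E14 and JB1 also differed, and the E14 knockout and JB1 wild type shares were close to each other. The ratio of H3f3b to H3f3a reads was 1.20 times as high in the knockout as in the wild type in E14 and 1.26 times in JB1. H3f3a and H2afz have processed copies in the genome, and how multi-mapping reads were counted is not stated in the labels, so their levels are uncertain. The antisense-strand genes Gm17275 and Gm16067 overlap H3f3a and had at most 1.45 RPM.

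**Figure D2:**
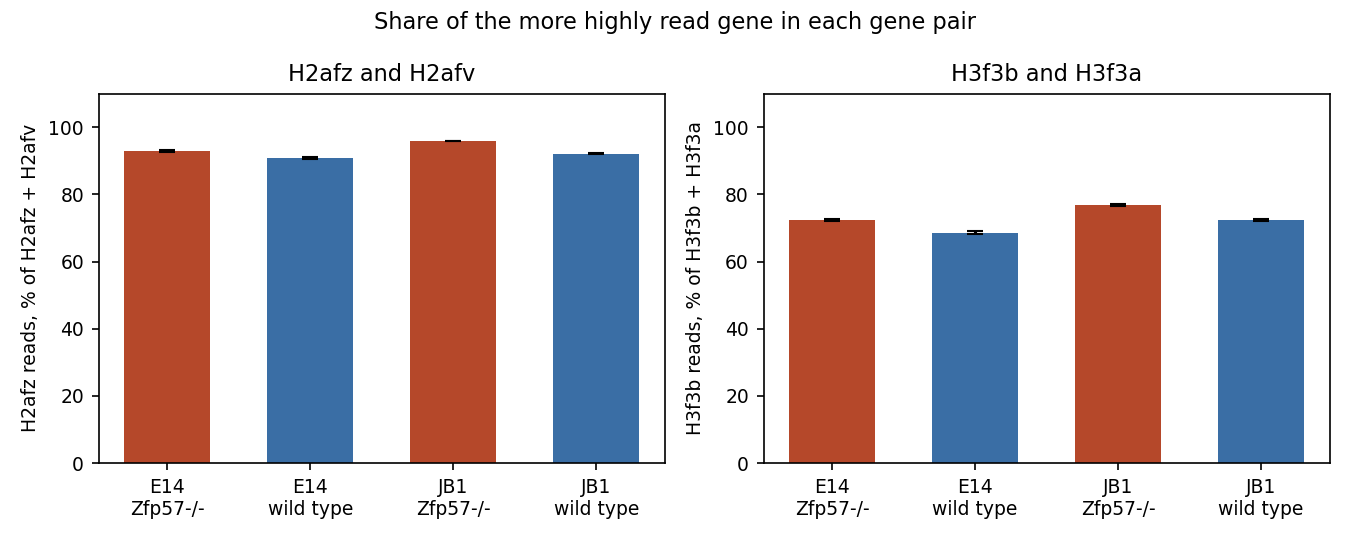
Share in percent of H2afz reads among H2afz and H2afv reads (left) and of H3f3b reads among H3f3b and H3f3a reads (right) in each of the 4 libraries, with exact 95% binomial intervals as error bars. In each line the knockout bar stands above the wild-type bar for both pairs.

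H3f3a lies in a stretch of chromosome 1 where most genes were lower in the JB1 knockout. The 25 genes within 2 Mb of it had a median difference of −0.38 in JB1, 20 of the 25 were lower, and H3f3a was at −0.56. Beyond 140 Mb on chromosome 1, the 191 genes averaging 5 RPM or more had a JB1 median of −0.34, and 156 were lower. That region was picked on these data in earlier work and holds the 25 neighbours, so these counts are no separate support. Up to 140 Mb, 196 of 359 such genes were lower, with a JB1 median of −0.04. In E14 the 25 neighbours had a median of −0.01, and H3f3a was at 0.20. The part of this regional shift in the H3f3a value and in the H3f3b share was not tested. H3f3b lies on another chromosome, and its 57 neighbours had medians of 0.06 in E14 and 0.08 in JB1.

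**Figure D3:**
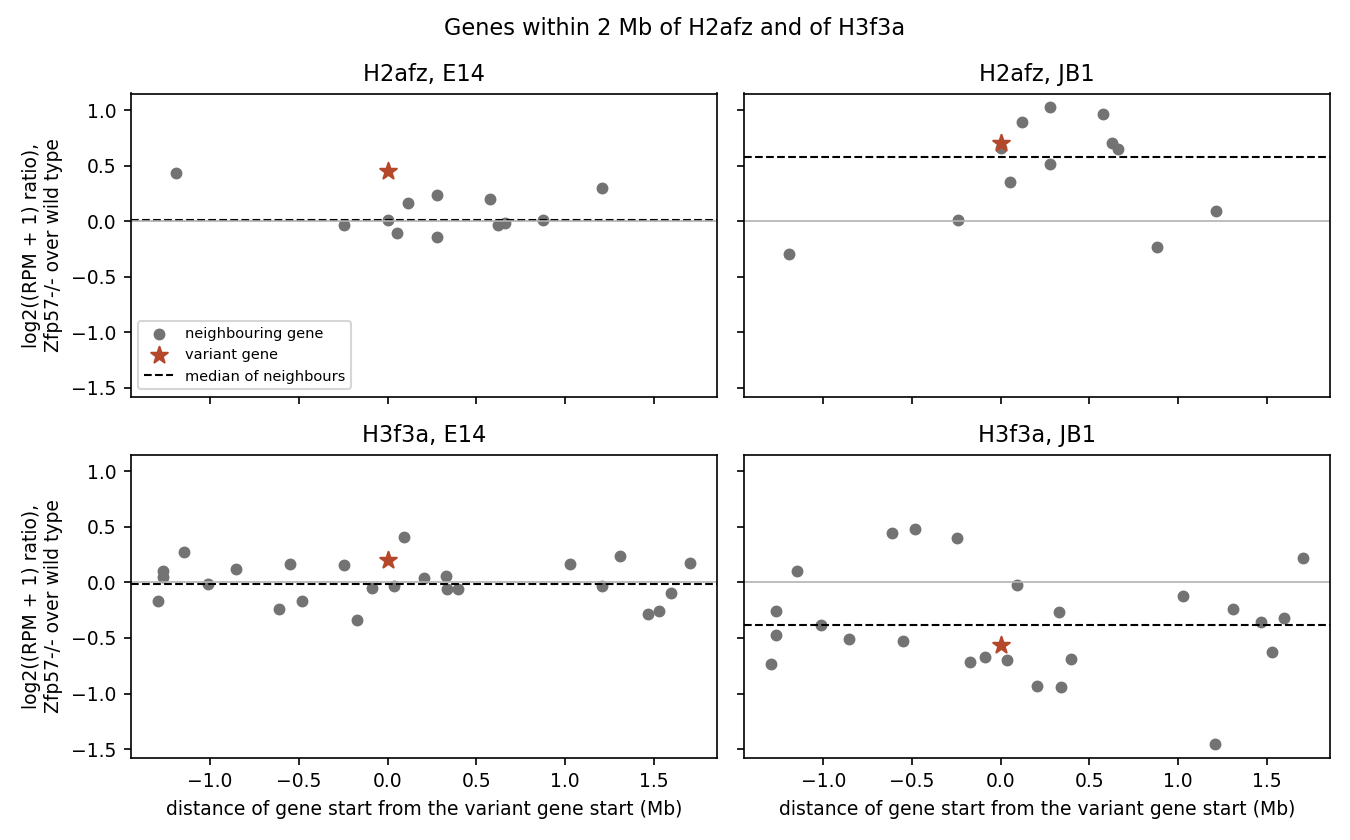
Log2 difference in (RPM + 1), Zfp57-/- over wild type, of genes averaging 5 RPM or more against the distance in Mb of their start from that of H2afz (top) or H3f3a (bottom), in E14 (left) and JB1 (right). Stars mark the variant gene and dashed lines the median of its neighbours, which is 0.58 around H2afz and −0.38 around H3f3a in JB1 and 0.01 and −0.01 in E14.

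Cenpa encodes CENP-A, the H3 variant of centromeres, whose mRNA is known to peak in G2 (chromosome 5, 30969150 to 30977200, plus strand). It had 26.7 RPM in the E14 knockout and 29.9 RPM in the E14 wild type, 1.12-fold lower (95% interval 1.05 to 1.20). The JB1 knockout had 60.2 RPM and the JB1 wild type 41.7 RPM, 1.44-fold higher (95% interval 1.38 to 1.51). The JB1 knockout was thus the highest and the E14 knockout the lowest of the 4 libraries. A difference of this size or more, in either direction, was seen in 51.8% of measured genes in E14 and 20.7% in JB1. Genes of G2 and mitosis, given beside it, were higher in the JB1 knockout in 17 of 19 cases, with a median of 0.26. In the E14 knockout 9 of 19 were higher, with a median of −0.02. Of all measured genes, 51.5% were higher in JB1 and 53.5% in E14. The part of the cell cycle in the Cenpa values was not tested.

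**Figure D4:**
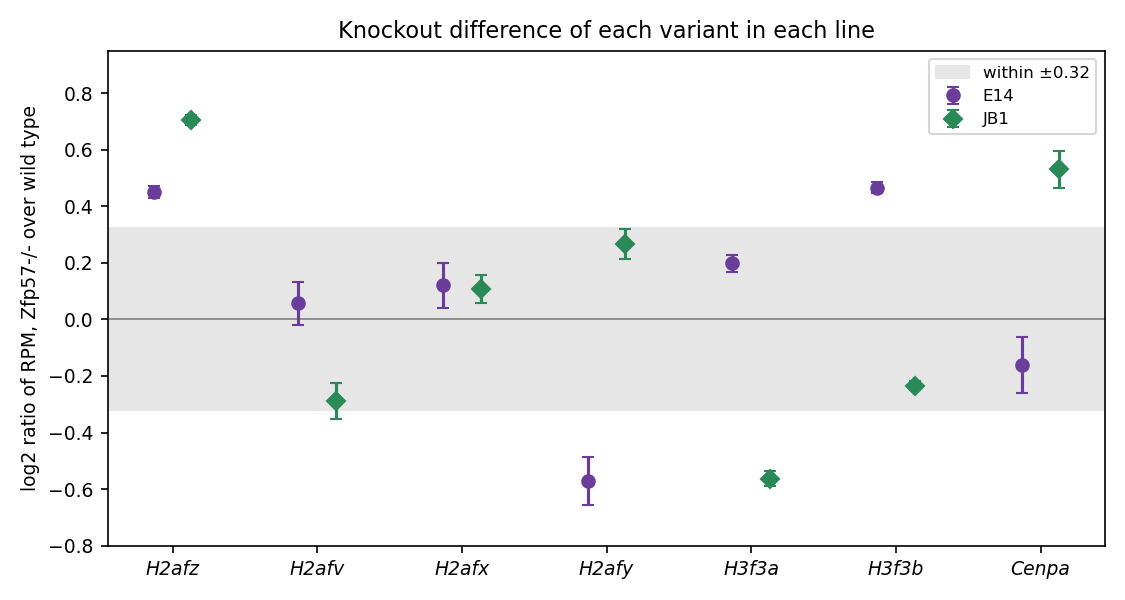
Log2 ratio of RPM, Zfp57-/- over wild type, of each variant in E14 (circles) and JB1 (diamonds), with exact 95% binomial intervals for counting error and a grey band for values within 0.32 of no difference. H2afz lies above the band in both lines, H3f3b above it in E14, Cenpa above it in JB1, H2afy below it in E14 and H3f3a below it in JB1.

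Across the 7 variants, H2afz and H3f3b were higher by 0.32 or more in the E14 knockout and 1, H2afy, was lower by as much. In E14, 13.4% of measured genes were at least that much higher and 8.81% lower. In the JB1 knockout 2 variants were higher by 0.32 or more (H2afz and Cenpa) and 1 lower (H3f3a), where 22.4% of measured genes were higher and 18.3% lower. No variant reached 2-fold in either line, and 1.22% of measured genes did in E14 and 4.08% in JB1. The median over the variants was 0.12 in E14 and 0.11 in JB1, beside 0.02 and 0.01 over all measured genes. In 5 of the 7, all except H2afz and H2afx, the lines had opposite signs, as had 42% of the 11890 genes measured in both.

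No variant passed the test for a difference shared by both lines. By limma, 0 of 12644 genes had an adjusted p under 0.05 (0% called), and 1005 (7.95%) had an unadjusted p under 0.05. The 2 lines are the only replicates of the genotype. H2afx had a shared log2 difference of 0.11 ± 0.15 (SE), Cenpa of 0.18 ± 0.20, H3f3b of 0.12 ± 0.23, H2afv of −0.11 ± 0.16, H2afy of −0.15 ± 0.22 and H3f3a of −0.18 ± 0.22. Their adjusted p-values by limma lay between 0.805 and 0.906. Each of these standard errors exceeds its difference, and a missed threshold does not show that the genes were level.

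Replication-dependent histone genes are set beside the variants. The libraries were poly(A)-selected, which acts against mRNA without a poly(A) tail. The values of these genes are therefore not levels of their total mRNA. Of the 65 that were measured in E14, 6 reached 1 RPM in the knockout alone, so their direction was set by that limit. The 59 with 1 RPM or more in the E14 wild type were all higher in the E14 knockout, by a median of 1.51 on the log2(RPM + 1) scale. The 65 lay between 0.39 and 2.82, with a median of 1.55, whereas the 7 variants lay between −0.56 and 0.47. The highest was Hist1h4c (2.82) and the lowest Hist2h2bb (0.39), and 3 of the 65 lay at or below H3f3b, the highest variant (0.47). In JB1 6 replication-dependent genes reached 1 RPM (1 in the knockout alone), with a median of −0.49, or −0.19 with a pseudocount of 5 and −0.79 with 0.1. The variants lay between −0.56 and 0.70 in JB1. H2afx, the variant with a stem-loop, had 0.12 in E14 and 0.11 in JB1.

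**Figure D5:**
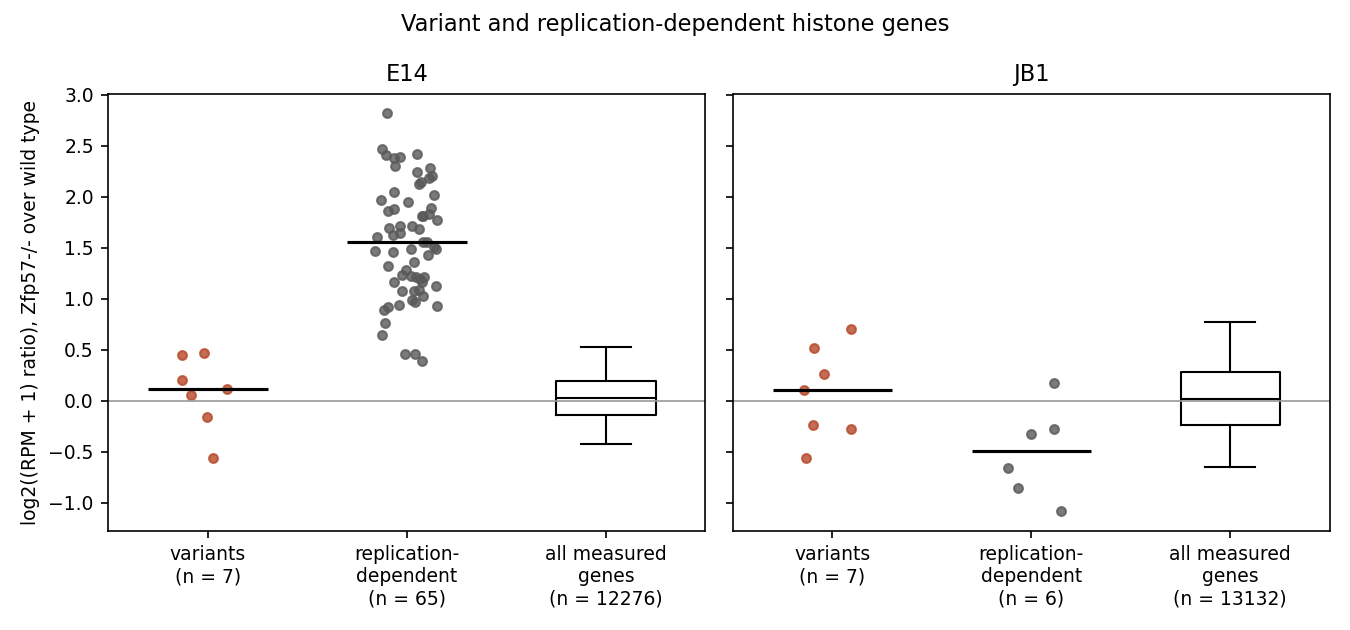
Log2 difference in (RPM + 1), Zfp57-/- over wild type, in E14 (left) and JB1 (right) for variants, replication-dependent histone genes and all measured genes, with points for genes, lines for medians and a box with whiskers from the 5th to the 95th percentile. In E14 the replication-dependent genes have a median of 1.55 and the variants of 0.12.

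Summed levels are given beside these differences. The 67 replication-dependent genes summed to 2499 RPM in the E14 knockout and 935 RPM in the E14 wild type, and to 28.0 RPM in the JB1 knockout and 39.6 RPM in the JB1 wild type. The 7 variants summed to 2036 RPM in the E14 knockout and 1585 RPM in the E14 wild type, and to 2207 RPM in the JB1 knockout and 1996 RPM in the JB1 wild type. The replication-dependent genes with the highest mean RPM over the 4 libraries, Hist1h1a, Hist2h2bb and Hist1h4d, had 99.9 to 157 RPM in the E14 knockout, 27.7 to 114 RPM in the E14 wild type, and under 0.38 RPM in both JB1 libraries. In JB1 the one with the most reads was Hist1h1c, with 5.03 RPM in the knockout and 11.7 RPM in the wild type. The tables of the lines were scaled separately, so levels across lines are set side by side without a test. The listed genes held 53.1% to 53.7% of the library total in E14 and 68.6% to 68.9% in JB1. After poly(A) selection, the sums of replication-dependent genes are not sums of their total mRNA. Near-identical histone copies can share reads.

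Other variants outside the 7 were few. H2afy2, which encodes macroH2A2, had 29.1 RPM in the E14 knockout and 32.3 RPM in the E14 wild type, and 26.9 RPM in the JB1 knockout and 30.2 RPM in the JB1 wild type. It was slightly lower in both knockout libraries. H2afj had 9.25 RPM in the E14 knockout and 7.49 RPM in the E14 wild type, and 10.9 RPM in the JB1 knockout and 14.4 RPM in the JB1 wild type. The linker variant H1fx had 1.13 RPM in the E14 knockout and 0.495 RPM in the E14 wild type, and 19.9 RPM in the JB1 knockout and 16.6 RPM in the JB1 wild type. H2afb1, Hils1 and H1fnt had 0 reads in all 4 libraries, so that levels up to 0.0594 RPM remain possible in the shallowest.

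The chaperones that place the variants were then counted. Of 20 table entries for H2A.Z deposition (Srcap is listed at 2 positions), 9 were higher and 11 lower in the E14 knockout, and 10 were higher and 10 lower in the JB1 knockout. The medians were −0.04 and −0.01, while H2afz was at 0.45 and 0.70. Over all measured genes, 53.5% were higher in E14 and 51.5% in JB1. The entries of Srcap, a remodeler that brings H2A.Z into chromatin, had log2 differences of −0.24 and −0.36 in E14 and −0.26 and −0.06 in JB1. Ep400, another such remodeler, had −0.24 in E14 and −0.11 in JB1. Anp32e, which removes H2A.Z, had 0.15 in E14 and 0.10 in JB1. The highest member was the helicase Ruvbl2 in E14 (0.34) and its partner Ruvbl1 in JB1 (0.91), and the lowest was Srcap in E14 (−0.36) and Mbtd1 in JB1 (−0.59).

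Of 10 genes for H3.3 deposition, 4 were higher and 6 lower in each line, with medians of −0.06 in E14 and −0.21 in JB1. By any amount, 53.5% of all measured genes were higher in E14 and 51.5% in JB1. In either line 0 were higher by 0.32 or more, against 13.4% of all measured genes in E14 and 22.4% in JB1. By the same limit 2 of the 10 were lower in E14 (Ubn2 and Chd2) and 4 in JB1, against 8.81% and 18.3% of all measured genes. Hira, the chaperone for genes, had −0.16 in E14 and 0.20 in JB1. Daxx had 0.11 and 0.06, and its partner Atrx −0.26 and 0.315. The lowest was Ubn2 in E14 (−0.83) and the remodeler Chd2 in JB1 (−0.68), and the highest was Dek in E14 (0.19) and Atrx in JB1. Of the 10, 4 had opposite signs in the lines, Dek and Chd1 higher in E14 and Hira and Atrx higher in JB1, against 42% of all genes measured in both lines.

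Of 15 genes listed with CENP-A deposition and the centromere, 6 were higher and 9 lower in E14, and 8 were higher and 7 lower in JB1. The share of all measured genes that were higher was 53.5% in E14 and 51.5% in JB1. Hjurp, the CENP-A chaperone, had 111 RPM in the E14 knockout and 117 RPM in the E14 wild type, and 552 RPM in the JB1 knockout and 387 RPM in the JB1 wild type. Its log2 differences were −0.07 in E14 and 0.51 in JB1, beside −0.16 and 0.52 for Cenpa. Cenpm was highest in E14 (0.74) and the kinase Plk1 in JB1 (0.74), while Cenpt was lowest in E14 (−0.53) and Cenpk in JB1 (−0.66).

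Of 12 genes listed with H2A.X damage signalling, 9 were higher in each line, with medians of 0.03 in E14 and 0.10 in JB1. In each line 1 was higher by 0.32 or more. These were Rad50 in E14 (0.41) and the ubiquitin ligase Rnf168 in JB1 (0.44). Over all measured genes, 13.4% were higher by 0.32 or more in E14 and 22.4% in JB1. By any amount, 53.5% of all measured genes were higher in E14 and 51.5% in JB1. The kinase Atm had −0.04 in E14 and 0.09 in JB1, and the lowest were Brca1 in E14 (−0.16) and the kinase Prkdc in JB1 (−0.21). Of 12 replication-coupled chaperones, 8 were higher in E14 and 11 in JB1, with medians of 0.05 and 0.13. The extremes in E14 were Chaf1b (0.53) and Supt16h (−0.67), and those in JB1 were Nap1l1 (0.58) and Chaf1a (−0.24).

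Of 14 genes listed with the 3′ processing of histone mRNA, 11 were higher in E14 and 9 in JB1, with medians of 0.02 and 0.17. Slbp, which binds the stem-loop, had 142 RPM in the E14 knockout and 108 RPM in the E14 wild type, and 100.4 RPM in the JB1 knockout and 79.3 RPM in the JB1 wild type. The highest were Cpsf3 in E14 (0.48) and Ncbp1 in JB1 (0.48), and the lowest were Lsm11 in E14 (−0.25) and Casp8ap2 in JB1 (−0.18). Of 18 S-phase genes, 15 were higher in E14 and 13 in JB1, with medians of 0.22 and 0.15. Their extremes were Ccne2 (0.56) and E2f1 (−0.13) in E14 and Ccne1 (1.51) and Mcm5 (−0.21) in JB1. Of 19 genes of G2 and mitosis, 9 were higher in E14 and 17 in JB1, with medians of −0.02 and 0.26. Ube2c (0.18) and Bub1b (−0.28) were the extremes in E14 and Plk1 (0.74) and Cenpf (−0.52) in JB1. Beside these lists, the share of all measured genes that were higher was 53.5% in E14 and 51.5% in JB1.

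Markers of cell identity are given beside these values. The 9 ES cell markers in the tables summed to 3133 RPM in the E14 knockout and 3448 RPM in the E14 wild type, and to 4168 RPM in the JB1 knockout and 5022 RPM in the JB1 wild type. Of the 9, 8 were lower in E14 and 6 in JB1. Their extremes were Nanog (−0.73) and Dppa5a (0.16) in E14 and Klf4 (−1.31) and Utf1 (1.45) in JB1. Pou5f1 was at −0.12 in E14 and 0.02 in JB1. Beside these marker lists, 53.5% of all measured genes were higher in E14 and 51.5% in JB1. Primitive endoderm markers summed to 142 RPM in the E14 knockout and 135 RPM in the E14 wild type, and to 157 RPM in the JB1 knockout and 123 RPM in the JB1 wild type, with 2 of 7 measured members higher in E14 and 8 of 9 in JB1. Sox17 and Hnf4a count among the 8 because they reached 1 RPM in the JB1 knockout alone, and 1 of the 7 in E14, Gata6, reached it in the wild type alone. Without Lama1, the marker with the most reads, the sums were 16.3 RPM in the E14 knockout and 18.4 RPM in the E14 wild type, and 56.8 RPM in the JB1 knockout and 38.9 RPM in the JB1 wild type. Neuroectoderm markers summed to 22.8 to 56.2 RPM, and mesoderm, trophoblast and fibroblast markers to at most 31.1 RPM per library. In the JB1 knockout all 4 measured fibroblast markers were higher, with a sum of 21.3 RPM, against 10.2 RPM in the JB1 wild type. Of the 10 fibroblast markers, 3 had 0 reads in each E14 library, 1 in the JB1 knockout and 5 in the JB1 wild type. The part of these cells in the differences of the variants was not tested.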

How the data were processed

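The deposited tables, 1 per cell line, hold log2 values of reads per 1000000 (RPM) made by the authors for 26130 genes. The tools were TopHat2 2.0.8b, cutadapt and CASAVA 1.8.2, and the build mm9, per the submitters' processing notes. The counting tool, annotation, strand setting and handling of multi-mapping reads are not stated in those sources. Genes without reads were deposited at the value of 0.9 of a read, and 100% of the other values were whole reads within a relative tolerance of 0.0001. From these, RPM (0 for genes without reads), reads and log2((RPM + 1) ratios) were computed, and a gene was measured in a line at 1 RPM or more in either library. The scale understates changes of low genes. For the shared effect, limma (version 3.58.1, R 4.3.3) fitted genotype and line to log2(RPM + 1) of genes averaging 1 RPM or more, followed by trended eBayes and Benjamini-Hochberg adjustment over all of these genes. A ratio of 5 to 4 (0.32 on this scale) and 2-fold served as limits within a line. The lines serve as the block, since both genotypes of a line share their strain. This leaves 1 residual degree of freedom per gene, moderated by 5.28 prior ones. Because the tables hold log2 values, no count model was run.

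The 8 members and the context lists were chosen with earlier results of these data known. The genes named are the members, the extremes of each context list in each line, the genes that act directly on a member, and the 3 replication-dependent histone genes with the highest mean RPM over the 4 libraries. The genes nearest to a member over both within-line differences were named for some members. Levels per kb and stem-loops used GENCODE M21 and promoters RefSeq, both on GRCm38; all other positions are those of the tables. Alternatives covered the pseudocount, the filter, the scaling, the line term and the trend.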

Additional observations from a re-analysis of the deposited data

Results flagged for a closer look

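In 5 variants the knockout difference had opposite signs in the lines, and the difference between the lines could not be tested with 1 library per line and genotype. On the log2(RPM + 1) scale, the JB1 difference minus the E14 difference was 0.82 for H2afy, 0.68 for Cenpa, −0.34 for H2afv, −0.70 for H3f3b and −0.76 for H3f3a. For H2afv the E14 ratio of 1.04 has a counting interval that includes equal levels. Opposite signs were seen in 42% of the 11890 genes measured in both lines. The median of replication-dependent histone genes also had opposite signs, and the JB1 median minus the E14 median was −2.05, over 6 genes in JB1 and 65 in E14.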

How the results depend on the processing

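The count of variants that differed by 0.32 or more was 3 in E14 and 3 in JB1 under every alternative that was run. None of the 7 changed sign within a line or in the shared effect under any alternative. The filters cannot change a variant's difference within a line. The shared difference also cannot change with the filter, the line term, the trend or the removal of replication-dependent histone genes. Only the pseudocount, the scaling and the centring can move these differences. By limma, 0 genes had an adjusted p under 0.05 under any alternative. The shared H2afz difference ranged between 0.56 and 0.58, with adjusted p by limma between 0.563 and 1.00. The highest p came without the cell line term (no replicate block), where 0 genes were called and 16 had an unadjusted p under 0.05. The unadjusted p of H2afz by limma was 0.022 in the main fit. It was 0.017 with a filter of 5 RPM, 0.075 without the RPM filter and 0.183 without the cell line term. Counts of all genes at least 2-fold different depended on the pseudocount: 345 in E14 and 1016 in JB1 with 0.1, and 50 and 194 with 5, against 150 and 536. With a pseudocount of 5, 1324 genes in E14 and 3488 in JB1 differed by 0.32 or more, against 2727 and 5352. Scaling by the reads in the listed genes, with or without replication-dependent histones, gave 230 genes at least 2-fold different in E14. The median of replication-dependent histones in E14 was 1.05 with a pseudocount of 5, against 1.55. In JB1 it was −1.08 with a filter of 5 RPM, against −0.49, because 1 gene was left, Hist1h1c. Leaving out a line leaves no residual degree of freedom, so each line is given by its own values. Each group holds 1 library.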

Other observations

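The genes whose pair of within-line differences was nearest to that of a variant are given as a description, over 2 differences from 4 libraries and among 6571 other genes at 10 RPM or more in all libraries. For H2afz these were Uchl5 (0.44 in E14 and 0.71 in JB1), a deubiquitinase, and Prdx2 (0.41 and 0.69), a peroxiredoxin, and 79 genes lay within a distance of 0.2. For H2afy they were Pex5 (−0.52 and 0.24) and Als2cl (−0.54 and 0.22), with 66 genes within 0.2. For H2afx, which was nearly level in both lines, 1399 genes lay within 0.2.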
